A study of Mus musculus with 48 samples.

Results

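The comparison treated here set the late series of hind limb unloaded mice kept in quiet against the early series of unloaded mice kept in the same surroundings. Its members were chosen by label: 6 late libraries, labelled as 3-month-old mice, and 12 early libraries, labelled as 2-month-old mice, together 18 of the 48 hypothalamus libraries of the study. The design text calls all mice 2 months old, and the labels were followed. All 18 came from C57BL/6 mice under hind limb unloading at 10 dBA and normal atmospheric pressure, and each library was made from a mixture of 3 male mice. The 12 early libraries form 2 series of 6 that carry the same labels and are called early series a and early series b. Each series holds 1 library for each of the title numbers 1, 5, 9, 13, 17 and 21, a number that has no unit in the labels. The labels do not say how long unloading had lasted in either period, nor whether replicates are separate experiments beyond the mixing of mice. Labelled age, period and series changed together, so they cannot be told apart, and p-values measure the spread between libraries. For single genes this spread was taken within series over all 48 libraries of the study. These include late free-moving and unloaded mice at 85 dBA and low atmospheric pressure, whose levels enter no comparison here. Free-moving mice of the same ages, kept in the same quiet, served as a side comparison (6 late and 12 early libraries).

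Hind limb unloading suspends a mouse by the tail so that the hind limbs bear no weight, and is used as a ground model of weightlessness and disuse. The hypothalamus holds the neurons that set feeding, water balance, temperature and pituitary output, and many of them are known by the peptide they secrete. Its neurons also switch on immediate early genes, a set transcribed within minutes of strong synaptic input or hormone signals and without new protein synthesis, whose products include the Fos, Jun, Egr and Nr4a transcription factors.

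Read depth, estimated from the steps between low values, ran from 32.0 M to 55.2 M reads (M for 1e6 reads) over the 18 libraries, with the late series at 35.7 M to 41.2 M. Values are RPKM, reads normalised to gene length and to the reads of the library, and a gene was called when the Benjamini-Hochberg adjusted p of limma on log2(RPKM + 0.5) was below 0.05. Across 13685 tested genes 5311 were higher in the late series (38.8%) and 1168 were lower (8.53%), with a median log2 difference of 0.21 over all genes, so every count below has to be read against those shares. After quantile normalization, which gives each library the same distribution of values, the split was 24.5% higher and 22.2% lower. Against early series a alone 99 genes passed (0.723%), and against early series b alone 7921 passed (57.9%). Genes called in 1 direction against each early series separately numbered 56 higher (0.409%) and 36 lower (0.263%). The mitochondrially encoded share of RPKM, described further on, differed between these series too, and the first principal component of the 18 libraries held 65.1% of the variance and had an absolute correlation of 0.97 with the log odds of that share across the 18 libraries.

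Some libraries stood apart by genes of neighbouring tissue. Gpr151, an orphan receptor gene known from habenular neurons, was at 0.546 and 0.482 RPKM in late numbers 1 and 5 but at 11.3, 6.72, 7.22 and 6.06 RPKM in late numbers 9, 13, 17 and 21, against 0 to 3.59 RPKM in the early libraries (median 0.576). Tcf7l2, a transcription factor gene of thalamus and habenula, was at 4.83 and 7.06 RPKM in late numbers 1 and 5, between 16.7 and 19.5 RPKM in the other 4 late libraries and between 4.12 and 8.45 RPKM in the 12 early ones. So 4 of the 6 late libraries carried more of these transcripts than any early library, and 2 did not. Of 10 thalamus marker genes 6 rose and 0 fell (38.8% and 8.53% of all genes), with a median of 0.70. With late numbers 1 and 5 alone 0 of them passed and the median was 0.08. The summed level of this list was 255 to 368 RPKM in the late series, 225 to 307 RPKM in early series a and 254 to 336 RPKM in early series b, and none of its genes was at 0 in a whole series. With the 4 libraries left out, 2 genes passed in the whole table, Fos and Fosb, with 2 late libraries in the fit. Early number 9 of series a carried anterior pituitary transcripts: Cga, the common alpha subunit of pituitary glycoprotein hormones, reached 100.7 RPKM there against 2.02 to 8.65 RPKM in the other 5 libraries of that series.

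Hypothalamic identity was present in every series. The 16 hypothalamic transcription factors summed to 74.2 to 93.4 RPKM in the late series, 45.9 to 99.7 RPKM in early series a and 46.2 to 75.1 RPKM in early series b, with none at 0. Of these 4 rose and 1 fell, where 38.8% and 8.53% of all genes did. The gene that fell was Rax, expressed in tanycytes, the cells lining the third ventricle: it was at 1.03 to 1.31 RPKM in the late libraries and at 1.31 to 6.07 RPKM in the early ones, without overlap. Lhx9, which marks neurons of the posterior hypothalamus and thalamus, rose by 0.85 ± 0.18 (SE), and its late values were again low in numbers 1 and 5 (0.83 and 0.603 RPKM) and high in the other 4 (2.20 to 2.80 RPKM).

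Immediate early genes rose in the late series. Of 17 tested members 16 were higher and 1 was lower (38.8% and 8.53% of all genes). The median log2 difference was 1.21 against 0.21 for all genes, and 9 members passed against each early series separately, where 0.409% of all genes did. The 250 bases before the start of 4 of the genes called against both early series are shown because they carry, or lack, the letters of the cAMP response element, the site through which calcium and cAMP signals act on such genes. They come from RefSeq (GRCm38.p6), run 5′ to 3′ on the strand of the gene, and capitals mark TGACGT or its reverse complement ACGTCA. The Fos stretch is chr12:85473640-85473889 (plus strand), Fosb chr7:19310046-19310295 (minus), Btg2 chr1:134079156-134079405 (minus) and Egr4 chr6:85513590-85513839 (minus).
Fos: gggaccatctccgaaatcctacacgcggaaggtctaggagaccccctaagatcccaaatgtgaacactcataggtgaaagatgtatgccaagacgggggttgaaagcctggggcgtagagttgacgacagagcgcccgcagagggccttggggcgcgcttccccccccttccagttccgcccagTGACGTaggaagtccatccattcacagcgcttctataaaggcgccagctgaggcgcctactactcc
Fosb: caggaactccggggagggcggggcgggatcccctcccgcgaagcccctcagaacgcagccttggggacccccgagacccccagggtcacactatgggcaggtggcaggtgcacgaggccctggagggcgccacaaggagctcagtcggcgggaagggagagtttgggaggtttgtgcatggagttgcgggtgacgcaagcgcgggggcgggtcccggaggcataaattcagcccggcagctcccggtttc
Btg2: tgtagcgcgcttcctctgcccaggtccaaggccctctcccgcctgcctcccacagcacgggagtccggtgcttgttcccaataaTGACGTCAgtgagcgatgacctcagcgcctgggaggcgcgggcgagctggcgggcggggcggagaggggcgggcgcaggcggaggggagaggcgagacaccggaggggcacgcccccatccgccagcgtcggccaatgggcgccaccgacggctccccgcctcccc
Egr4: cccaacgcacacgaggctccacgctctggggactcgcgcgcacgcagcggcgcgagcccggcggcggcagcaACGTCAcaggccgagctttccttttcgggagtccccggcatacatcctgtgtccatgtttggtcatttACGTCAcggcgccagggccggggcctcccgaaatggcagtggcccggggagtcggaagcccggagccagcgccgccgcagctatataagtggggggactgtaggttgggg
In Btg2 the site is the full palindrome TGACGTCA, in Egr4 the letters occur 2 times, in Fos they occur 1 time, and in Fosb they are not in this window. Nr4a1, Junb and Nr4a2, also called against both early series but not shown, lack the letters in their windows too. Of the 14 listed immediate early genes with an entry in the promoter table, 7 held TGACGT on either strand in at least 1 stretch. Over all 32851 stretches of this length 6.47% held it. The first count is by gene and the second by stretch, and Egr2 has 5 stretches, so the 2 are not alike in unit. A match is a description of letters only. The 7 genes include Egr2, which was not tested, and Npas4, Nr4a3 and Dusp1, which were not called against both early series.

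Fos, the partner of Jun proteins in the AP-1 factor and the most used marker of neuronal activation, lay between 8.23 and 30.1 RPKM in the late libraries (median 27.4) and between 2.46 and 8.23 RPKM in the early ones (median 3.94). Late number 9 was the low one, level with the highest early library, and the other 5 late libraries lay above all 12. The fitted difference was 2.26 ± 0.25 on the log2 scale, 4.79-fold, with an adjusted p of 1.79e-07, and it was higher in 6 of 6 title numbers. Its relative Fosb ranged from 0.813 to 5.40 RPKM late (median 3.74) and from 0.278 to 1.28 RPKM early (median 0.497), a difference of 1.85 ± 0.22. Again late number 9 alone fell inside the early range. Because tissue pools were measured, more cells expressing such a gene and more RNA per cell cannot be told apart.

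Egr1, a zinc finger factor induced by growth factors and synaptic activity, was at 8.11 to 30.0 RPKM late (median 25.4) and 4.10 to 16.0 RPKM early (median 4.67). The groups overlapped because late number 9 was low and early series a numbers 5 and 17 were high. Arc, whose protein acts at synapses to remove AMPA receptors, was at 11.0 to 18.4 RPKM late (median 15.5) and 3.63 to 11.1 RPKM early (median 4.81), and the groups overlapped only by late number 9 and early series a number 17. Its difference was 1.43 ± 0.17, with an adjusted p of 4.39e-07. Junb, an AP-1 subunit, was at 12.7 RPKM in late number 9 and at 37.7 to 49.1 RPKM in the other late libraries, against 10.3 to 26.2 RPKM early. Nr4a2, an orphan nuclear receptor, was the member without overlap: 3.99 to 6.21 RPKM late (median 5.46) and 1.55 to 3.54 RPKM early (median 2.28), a rise of 1.07 ± 0.16. Over all tested genes 3.75% had every late library above every early one and 0.899% had every late library below.

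**Figure D1:**
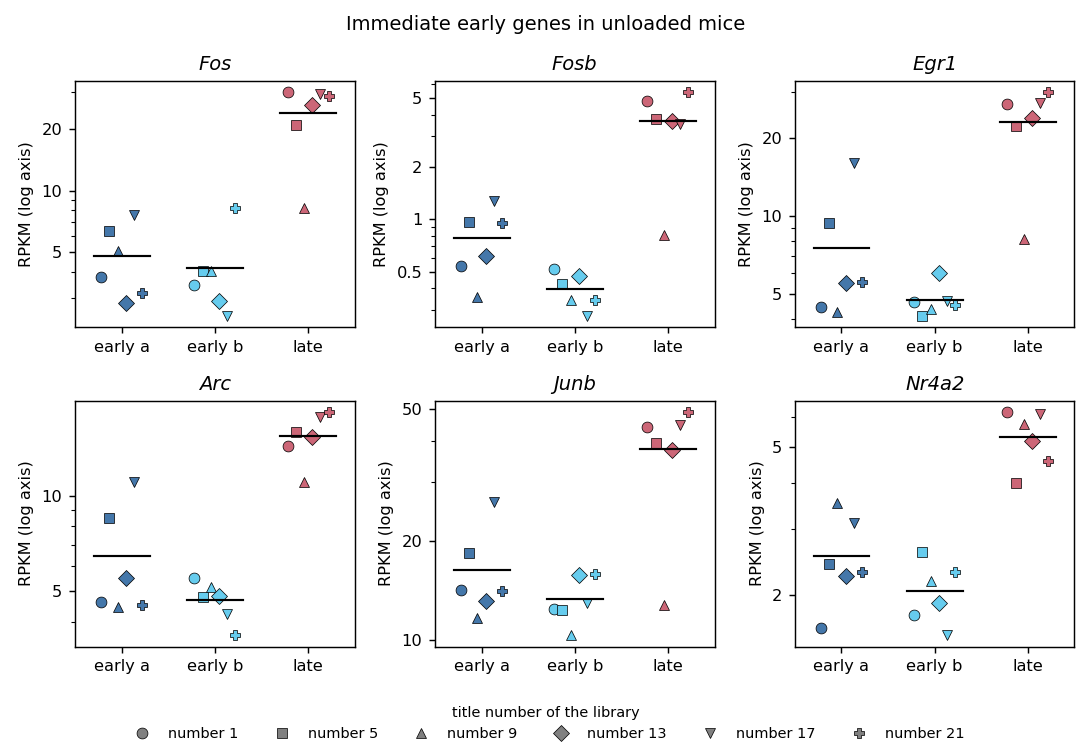
RPKM (log axis) of 6 immediate early genes in each of the 18 libraries, by series, with marker shape giving the title number and lines the series means. The late series lies above the early ones, late number 9 (triangle) is low for Fos, Fosb, Egr1 and Junb, and Nr4a2 does not overlap.

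Further members rose as well. Btg2, an antiproliferative gene, rose by 1.54, Nr4a1 by 1.40, Egr4 by 1.25, Egr3 by 1.21 and Dusp1, a phosphatase that switches off MAP kinases, by 1.13. Nr4a3 rose by 0.74 and Jun by 0.63. Npas4, a factor induced by calcium entry in neurons, was at 3.79 to 9.80 RPKM late (median 8.60) and at 3.20 to 6.54 RPKM early (median 5.29), with late number 9 low once more, and rose by 0.57 ± 0.15 (adjusted p 0.00279). Npas4 did not pass after quantile normalization (0.31, adjusted p 0.122), against early series b alone (0.37, adjusted p 0.0566) or without the 4 libraries rich in thalamus transcripts (0.80, adjusted p 0.401). Jund, the AP-1 subunit that neurons express without stimulation, fell by 0.46. Without the 4 libraries rich in thalamus transcripts Fos still differed by 2.18 and Fosb by 1.88 (adjusted p 0.00722 each), while Egr1 (1.79) and Arc (1.26) no longer passed, with adjusted p of 0.137 and 0.125. In that setting only 2 genes of the whole table passed, so a lost call there, also for Npas4, cannot tell genes apart. A fit that holds the mitochondrial share as a covariate called 14 members higher and 1 lower.

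Several peptide genes of the hypothalamus were lower in the late series, among them Agrp, Npy, Avp, Oxt and Sst. Of 16 feeding and arousal neuropeptides 7 fell and 0 rose, and of 9 neurohypophysial and releasing hormones 6 fell and 0 rose, with medians of -0.27 and -0.65 (8.53% of all genes fell). Prlh is counted in each list. Agrp, Npy, Avp, Oxt and Sst belong to the shortest of 4 equal groups of genes by exon length (204 to 2789 bases). In that group 719 of 3383 genes fell and 379 rose. The part of length in these falls was not tested. Agrp, the hunger peptide that blocks melanocortin receptors, was at 5.77 to 17.3 RPKM in the late libraries (median 8.55) and at 22.3 to 74.0 RPKM in the early ones (median 49.2). Every late library was below every early one, a difference of -2.23 ± 0.28, 4.69-fold, with an adjusted p of 1.12e-06. Npy, made by the same arcuate neurons, was at 49.2 to 81.4 RPKM late (median 58.2) and 101.3 to 249 RPKM early (median 183), a fall of 1.51 ± 0.19 on the log2 scale, again without overlap. Pomc and Cartpt, the satiety peptides of the neighbouring arcuate neurons, fell by 0.89 and 0.47. For Pomc, also a pituitary hormone precursor, the late libraries (24.4 to 38.5 RPKM) overlapped early series a, where number 9, the library rich in pituitary transcripts, stood at 362 RPKM and 4 others lay between 25.5 and 30.8 RPKM, and against series a alone its adjusted p was 0.226.

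Avp and Oxt lie close together on chromosome 2 (GRCm38, 130580620 to 130582554 and 130576173 to 130577054), and Npy lies on chromosome 6 (49822710 to 49829507). Avp, encoding vasopressin, the hormone of water retention, was at 1080 to 1826 RPKM late (median 1255) and at 2154 to 7047 RPKM early (median 4066). The groups did not overlap, and the difference was -1.64 ± 0.21 with an adjusted p of 2.42e-06. Oxt, encoding oxytocin, was at 660 to 1091 RPKM late (median 735) and at 994 to 2396 RPKM early (median 1916), a fall of 1.11 ± 0.16 with a single early library, series a number 5, inside the late range. Sst, encoding somatostatin, which restrains growth hormone release, was at 287 to 349 RPKM late (median 314) and at 373 to 660 RPKM early (median 482), without overlap, and fell by 0.60 ± 0.10. Prlh, Gnrh1 and Ghrh fell by 1.51, 0.82 and 0.65, and none of the 3 passed against early series a alone (adjusted p 0.0612, 0.125 and 0.375). Agrp, Npy, Avp, Oxt and Sst passed against each early series separately.

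Among peptide genes of the lateral and paraventricular hypothalamus, 4 did not pass. Hcrt, encoding orexin, differed by -0.26 ± 0.16 (adjusted p 0.186), Trh by -0.23 ± 0.16 (0.235) and Crh by -0.06 ± 0.15 (0.761). Pmch, encoding melanin-concentrating hormone, was at 317 to 420 RPKM late and 40.5 to 485 RPKM early, with a difference of 0.69 ± 0.34 and an adjusted p of 0.0904. Nmb, encoding neuromedin B, was lower without overlap, at 2.88 to 4.54 RPKM late and 4.78 to 17.3 RPKM early.

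The 4 late libraries rich in thalamus transcripts also had the lowest late levels of Agrp, Npy, Avp, Oxt and Sst. Avp was at 1686 and 1826 RPKM in late numbers 1 and 5 and at 1080 to 1313 RPKM in the other 4, and Oxt at 1059 and 1091 RPKM against 660 to 742 RPKM. For Agrp these values were 12.5 and 17.3 RPKM against 5.77 to 8.81 RPKM. With late numbers 1 and 5 alone the differences were -1.57 for Agrp, -1.06 for Npy, -1.19 for Avp, -0.70 for Oxt and -0.47 for Sst, each with an adjusted p of 0.401. For Agrp, Npy, Avp and Sst those 2 late libraries still lay below all 12 early ones. The part of neighbouring tissue in these values was not tested.

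**Figure D2:**
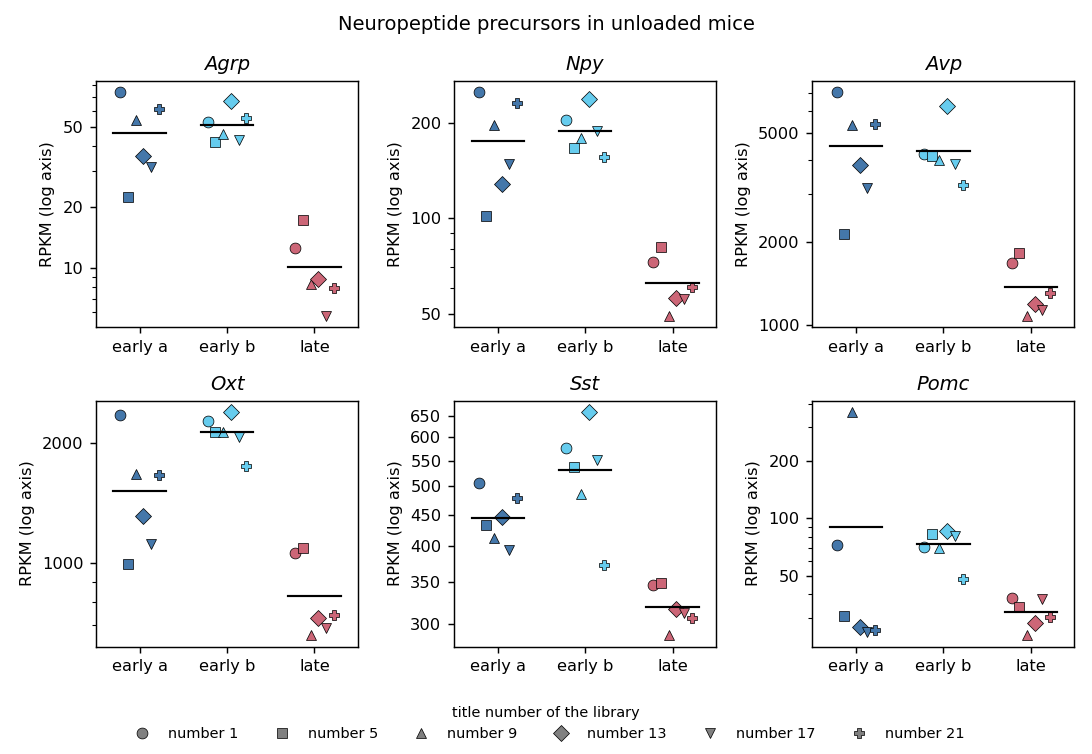
RPKM (log axis) of 6 peptide genes in each of the 18 libraries, with shape giving the title number and lines the series means. Late values of Agrp, Npy, Avp and Sst lie below all early ones, late numbers 1 and 5 (circle, square) are the highest late values for Agrp, Npy, Avp, Oxt and Sst, and the Pomc value of early series a number 9 stands at 362 RPKM.

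Outside these groups the genes called against both early series included immune, growth factor and vascular genes among those that rose. They and the lower ones named next were picked from that set after their values were seen. Il33, a nuclear cytokine of glia, was at 18.2 to 28.7 RPKM late (median 24.5) and 10.8 to 14.5 RPKM early (median 11.7), without overlap, and rose by 0.93 ± 0.10 with an adjusted p of 6.07e-08. Its late values were lower in numbers 1 and 5 (19.6 and 18.2 RPKM) than in the 4 libraries rich in thalamus transcripts (24.4 to 28.7 RPKM), and with numbers 1 and 5 alone the difference was 0.66 (adjusted p 0.189). Apln, encoding apelin, a peptide ligand of a vascular and neuronal receptor, was at 6.90 to 10.9 RPKM late and 3.93 to 5.99 RPKM early, also without overlap. Kitl, the ligand of the Kit receptor, rose by 1.02 ± 0.20, and its late values split as the thalamus genes did, 2.37 and 2.70 RPKM in numbers 1 and 5 against 4.98 to 6.74 RPKM in the rest, and with numbers 1 and 5 alone the difference was 0.36.

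Lower genes of that set included secreted products of meninges and glia. Ptgds, the prostaglandin D synthase of leptomeninges, choroid plexus and oligodendrocytes, was at 2085 to 3373 RPKM late (median 2472) and at 3567 to 6017 RPKM early (median 4408), a fall of 0.78 without overlap. Quantile normalization turned its difference to 0.17 (adjusted p 0.565). Igfbp2, a binding protein of insulin-like growth factors, was at 39.4 to 56.3 RPKM late and 56.4 to 97.1 RPKM early, and Apoc1, a lipoprotein component, fell by 1.09 ± 0.16. Igf2 and Mgp, expressed in meninges and vessel walls, fell by 0.96 and 1.11 and passed against series b alone but not against series a (adjusted p 0.0612 and 0.0642). The mural and meningeal list summed to 145 to 222 RPKM in the late series, 197 to 328 RPKM in early series a and 219 to 304 RPKM in early series b. Of its 13 tested genes 3 fell and 2 rose (8.53% and 38.8% of all genes). After quantile normalization 9 of the 13 were lower and 1 was higher.

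**Figure D3:**
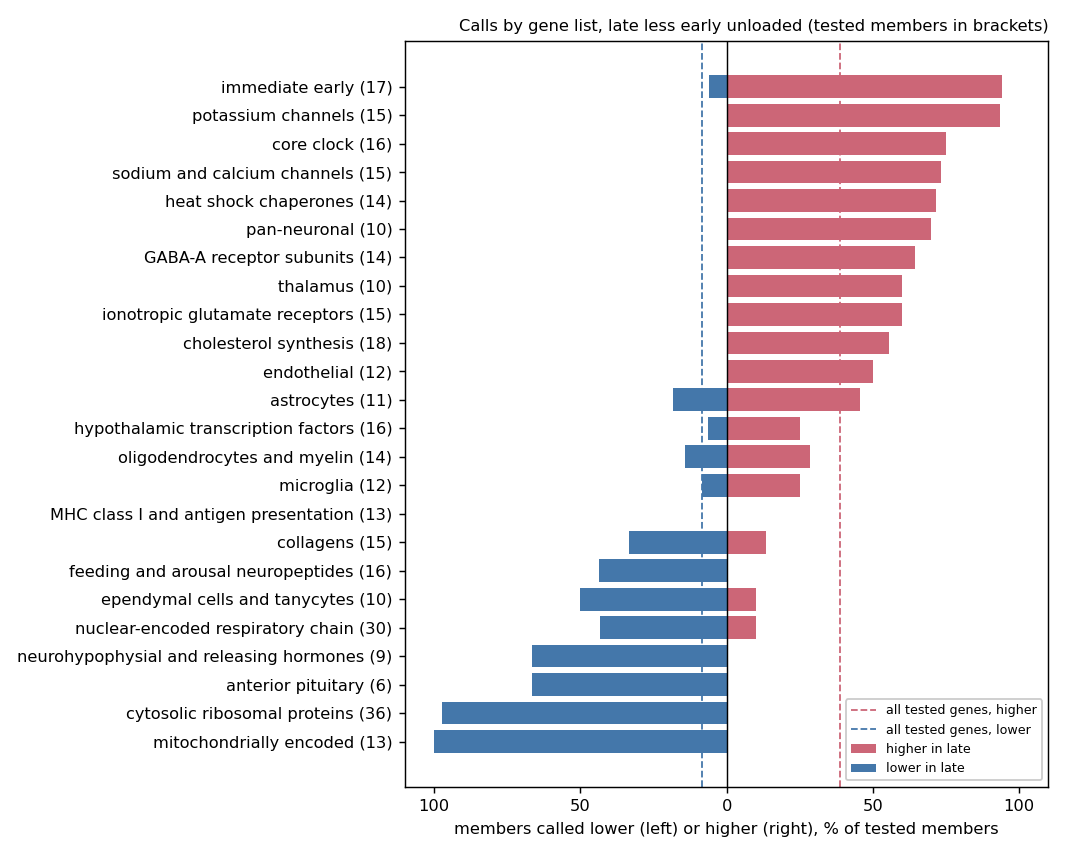
Share of tested members (%) called higher (right, red) or lower (left, blue) in late than in early unloaded mice, for 24 gene lists with the number tested in brackets; dashed lines mark the shares over all tested genes, 38.8% and 8.53%. Of the lists drawn, immediate early genes and potassium channels have the highest shares of rises, and mitochondrially encoded and ribosomal protein genes the highest shares of falls.

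All 13 mitochondrially encoded genes, which code for core subunits of the respiratory chain and ATP synthase, were lower in the late series, with a median of -1.10. Their share of summed RPKM was 14.0 ± 1.32% in the late libraries (SD, n = 6) and 27.4 ± 13.1% in the early ones (SD, n = 12), a difference of -13.4 percentage points (two-sided exact permutation test, p = 0.0268, 18564 arrangements). The test exchanged libraries freely, without regard to title number or to early series a and b. The early series were unlike: series a held 5 libraries between 11.2 and 18.5% and number 1 at 48.2%, and series b ran from 24.6 to 51.0%. Against series a alone the difference was -6.51 points (exact p = 0.227) and against series b -20.2 points (exact p = 0.00216), and without number 1 of series a it was -11.5 points (exact p = 0.0322). With title number 1 left out of all 3 series it was -10.4 points (exact p = 0.0826). mt-Co2, a cytochrome oxidase subunit, was at 4750 to 6712 RPKM late and 4512 to 27670 RPKM early, so that the late values lay inside the range of series a. After quantile normalization 2 of the 13 genes fell and their median was 0. That step gives every library the same highest values, so it can hide a shared fall of very abundant genes. This count therefore cannot decide whether the fall depends on normalization.

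**Figure D4:**
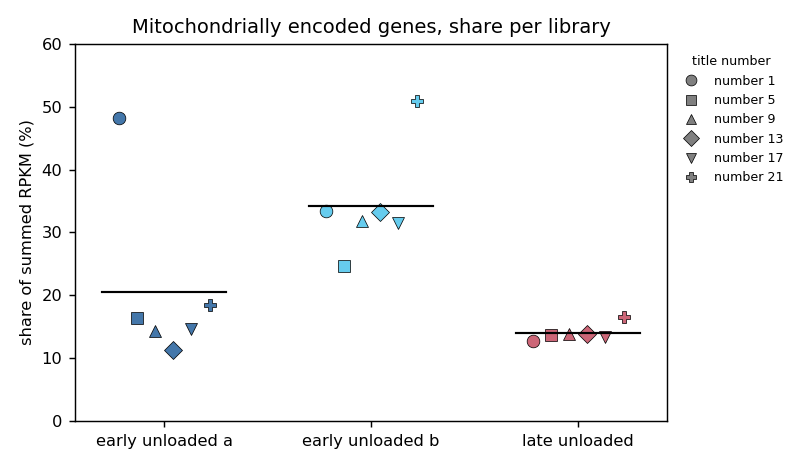
Share (%) of summed RPKM held by the 13 mitochondrially encoded genes in each library, with shape giving the title number and lines the series means. The late series lies between 12.7 and 16.6%, 5 libraries of early series a lie at a like level, and early series b and number 1 of series a lie above.

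Ribosomal protein genes fell as a block: 35 of 36 cytosolic members were called lower and 0 higher, where 8.53% and 38.8% of all genes were. Their median was -0.52. For 18 of them every late library was below every early one, which held for 0.899% of all genes. Rps19, a small-subunit protein, was at 111 to 137 RPKM late (median 130) and at 151 to 307 RPKM early (median 246). Rplp0, a stalk protein of the large subunit, fell by 0.36 ± 0.07 and was the single gene of the list called against both early series. The covariate fit called 33 of the 36 lower, rescaling every library to 1 sum left 18 with a median of -0.23, and against early series a alone 1 was called, against series b alone 34. Of 30 nuclear-encoded respiratory chain genes 13 fell and 3 rose, and Ndufa2, a complex I subunit, fell by 0.80. Gene length moved with all of this: with genes split into 4 equal groups by exon length, the shortest had a median difference of -0.02, with 379 higher and 719 lower, and the longest 0.39, with 2258 higher and 53 lower. The part of length and of the mitochondrial share in the gene results was not tested beyond the covariate fit.

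Receptors and channels of neurons were higher. Of 14 GABA-A receptor subunits 9 rose, of 15 ionotropic glutamate receptor subunits 9 rose, of 15 potassium channels 14 rose and of 15 sodium and calcium channels 11 rose, and 0 of any of them fell, with medians between 0.44 and 0.64. Over all tested genes 38.8% rose, and in the group of longest genes 2258 of 3378 did. The part of gene length in these counts was not tested. Gabrb2, a beta subunit of the GABA-A receptor, was at 1.28 to 1.94 RPKM late (median 1.51) and at 0.28 to 1.39 RPKM early (median 0.523). A single early library, series a number 9, lay inside the late range, and the rise of 0.93 ± 0.14 passed against each early series. Grin2b, an NMDA receptor subunit, was at 3.02 to 3.84 RPKM late and 0.46 to 2.94 RPKM early, and Gria2, the AMPA receptor subunit that limits calcium entry, at 16.6 to 20.4 RPKM late and 4.07 to 16.4 RPKM early, both without overlap but, with adjusted p of 0.154 and 0.114, not past the threshold against series a alone. Gad2, the GABA-synthesizing enzyme, rose by 0.94 and Slc17a6, the glutamate transporter of vesicles in hypothalamic and thalamic neurons, by 0.79. Nefm, a neurofilament subunit, rose by 0.95. In late numbers 1 and 5 Slc17a6 was at 20.25 and 21.58 RPKM, against 26.99 to 33.02 RPKM in the other late libraries and 6.28 to 25.8 RPKM early. Nefm was at 27.41 and 32.7 RPKM, against 37.12 to 47.42 RPKM and 9.67 to 32.85 RPKM. Gad2, Slc17a6 and Nefm did not pass against series a alone, and Slc17a6 did not pass in the covariate fit. In the covariate fit the counts were 2 of 14 GABA-A subunits, 3 of 15 glutamate receptor subunits and 5 of 15 potassium channels. Called higher against each early series separately were 1 GABA-A subunit, 0 glutamate receptor subunits, 0 potassium channels and 0 sodium and calcium channels.

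Zkscan16, a zinc finger gene, and Sacm1l, a phosphoinositide phosphatase, were among the 15 largest rises, at 1.83 ± 0.32 and 1.64 ± 0.26. Zkscan16 was at 5.13 to 6.91 RPKM late, at 0.463 to 1.01 RPKM in early series b and at 0.569 to 5.36 RPKM in series a. Neither passed against series a alone (adjusted p 0.0985 and 0.0748).

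Of 16 core clock genes 12 rose and 0 fell, with a median of 0.46, and Rora, an activator of the clock that also marks thalamus, rose by 0.73, with 1.83 and 1.94 RPKM in late numbers 1 and 5 and 3.26 to 3.87 RPKM in the others. Of 14 heat shock chaperones 10 rose, led by Hspa1a, the inducible Hsp70, at 8.09 to 20.9 RPKM late and 2.56 to 8.56 RPKM early (1.06 ± 0.28). Of 18 cholesterol synthesis genes 10 rose, among them Insig1, the sterol sensor that holds SREBP back, by 0.71. With the covariate these counts were 3 clock genes, 1 chaperone and 2 cholesterol genes, and after quantile normalization 7 clock genes were higher. Of 14 hypoxia targets 6 rose and 0 fell, a share near the 38.8% of all genes, with a median of 0.17 against 0.21 for all genes, and after quantile normalization 2 were higher and 1 lower. One of the 6, Vegfa, the growth factor of vessels, was at 14.9 RPKM or more in every late library and at 4.50 to 14.4 RPKM early, without overlap. Flt1, a Vegfa receptor of endothelium, did not overlap either and rose by 0.72, but against series a alone neither Vegfa nor Flt1 passed (adjusted p 0.0802 and 0.0941). Of 12 endothelial genes 6 rose and 0 fell, with a median of 0.28, and after quantile normalization 2 were higher. Against series a alone 0 genes of the clock, chaperone, cholesterol, hypoxia and endothelial lists were called.

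Astrocyte genes were called in both directions. Gfap, the intermediate filament that marks reactive and fibrous astrocytes, was at 78.9 to 119 RPKM late (median 92.7) and at 121 to 217 RPKM early (median 146), a fall of 0.66 ± 0.12 without overlap, and Agt, encoding angiotensinogen, fell by 0.50 ± 0.09. Both passed against each early series. Aqp4, the water channel of astrocyte endfeet, was at 16.9 to 22.9 RPKM late and 7.59 to 16.4 RPKM early, and Slc1a2, the main glutamate transporter, at 65.2 to 71.5 RPKM late and 21.6 to 60.7 RPKM early, and both rose without overlap, by 0.63 and 0.79. Against series a alone neither passed (adjusted p 0.0718 and 0.154). In all, 5 of 11 astrocyte genes rose and 2 fell. Of 14 myelin genes 4 rose and 2 fell, and Mobp, a myelin structural gene, fell by 0.69. Of 12 microglia genes 3 rose and 1 fell, of 18 interferon-stimulated genes 3 rose and 3 fell, and of 13 genes of MHC class I and antigen presentation 0 were called, where 38.8% and 8.53% of all genes were called higher and lower. After quantile normalization 1 microglia gene was higher and 4 were lower, 0 interferon-stimulated genes were higher and 6 lower, and 2 of the 13 antigen presentation genes were lower. Of 16 glucocorticoid-responsive genes 2 rose and 2 fell, and Sgk1, a kinase gene induced by glucocorticoids, was at 8.03 to 40.6 RPKM late and 4.82 to 33.3 RPKM early (0.27 ± 0.33, adjusted p 0.514).

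The same late-against-early difference was fitted in free-moving mice, where 60.5% of genes were higher and 18% lower. The unloaded difference less the free-moving difference passed for 4589 genes (33.5%), below 0 for 3497 and above 0 for 1092. With the mitochondrial share as a covariate 1771 passed, 1374 of them above 0. That share was 8.95 to 13.5% in the late and 18.7 to 62.4% in the early free-moving libraries. In the late free-moving libraries Gpr151 ranged from 0.444 to 6.95 RPKM and Tcf7l2 from 3.83 to 25.7 RPKM. The part of either in this difference was not tested beyond the covariate fit. Klhl11, a substrate adaptor of a ubiquitin ligase, differed by 0.59 in unloaded and 2.84 in free-moving mice, Gabrb2 by 0.93 and 2.94, Kcna3, a potassium channel gene, by 0.62 and 2.66, and Slc9a7, a sodium-proton exchanger gene, by 0.59 and 2.36. For these 4 genes the difference of differences lay between -2.25 and -1.78, with adjusted p of 8.41e-08 or less. mt-Co2 fell by 1.05 in unloaded and by 2.64 in free-moving mice (adjusted p of the difference 0.00948).

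Of the immediate early genes, Fos rose by 2.26 in unloaded and 1.62 in free-moving mice, a difference of 0.64 ± 0.36 that did not pass (adjusted p 0.154), and those of Egr1 and Arc were 0.01 ± 0.36 and 0.27 ± 0.24. Npas4 went in opposite directions, with 0.57 in unloaded mice and -0.86 in free-moving mice, and the difference of 1.44 ± 0.21 passed (adjusted p 1.5e-05). Nr4a3, Jun and Jund also differed between both kinds of mice, with smaller changes under unloading. Agrp fell by 2.23 in unloaded and by 3.03 in free-moving mice, a difference of 0.80 ± 0.39 (adjusted p 0.102), and for Npy and Avp the differences of 0.53 ± 0.27 and 0.52 ± 0.30 did not pass either (0.119 and 0.164). Oxt, Cartpt, Sst and Gnrh1 did pass, each with the smaller fall under unloading (adjusted p 0.048, 0.0126, 0.026 and 0.0171). Lrg1, a secreted glycoprotein gene of vessels and the acute phase, was at 1.90 to 4.01 RPKM in the late and 1.04 to 3.85 RPKM in the early unloaded libraries, a difference of 0.29 ± 0.20, against -0.72 in free-moving mice (adjusted p of the difference 0.00947). Sgk1 differed by 0.27 and 1.61 (0.0268).

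**Figure D5:**
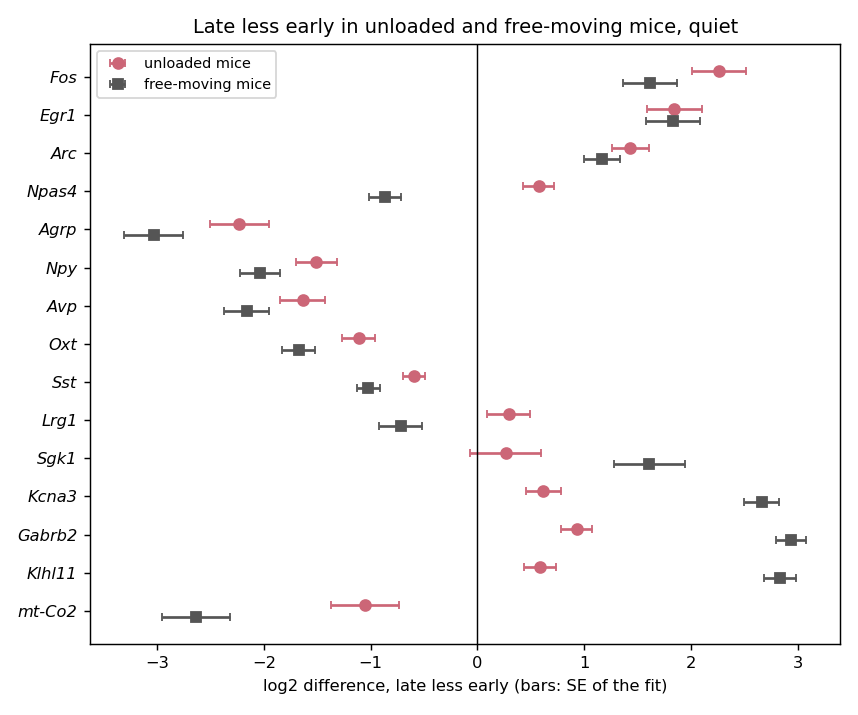
Log2 difference, late less early, with its standard error, for 15 genes in unloaded mice (circles) and free-moving mice (squares), all in quiet. Egr1 and Arc lie close together, and Fos lies at 2.26 in unloaded and 1.62 in free-moving mice, a difference that did not pass. Npas4 and Lrg1 lie on opposite sides of 0, and Kcna3, Gabrb2 and Klhl11 lie above 2.6 in free-moving mice and below 1 in unloaded mice.

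The early series, alike in label, differed from each other at 114 genes (0.833%), with 4047 at an unadjusted p below 0.05 and a median of -0.16 for series b less series a. Among the genes described, Prlh (1.17), Cartpt (0.53), Ghrh (0.76) and Sacm1l (-1.21) passed in that comparison, with adjusted p of 0.0375, 0.0467, 0.0467 and 0.0467. Fos, Agrp and Avp differed between series a and b by -0.20, 0.23 and 0.01, with adjusted p of 0.641, 0.619 and 0.979, far less than their late differences.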

How the data were processed

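Total RNA from pooled hypothalamus was sequenced by the submitters, and CASAVA 1.8 and HISAT are named in the submitters' processing notes. The sources used here do not give the version of HISAT, the genome build, the annotation or the way reads were counted. The authors deposited RPKM values for 21558 genes in 48 columns, with gene symbols, and all 48 columns were used. RPKM is relative to total reads, so a change in abundant transcripts shifts all others. The design text calls all mice 2 months old, whereas the labels give 3 months for late series, and the labels were followed.

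Genes with a mean of at least 0.5 RPKM over all libraries (13685) were fitted with limma 3.58.1 in R 4.3.3 on log2(RPKM + 0.5), with 1 term per series, the title number as a block, an intensity trend and 35 residual degrees of freedom. All p-values are two-sided and Benjamini-Hochberg adjusted over the 13685 genes, and log2 differences and standard errors come from this fit, so they understate the change of low genes. The contrast was the late series less the mean of both early series. The mitochondrial share used an exact permutation test. The fit was tested on simulated data. Same-numbered libraries were alike only weakly: of 18 pairs across the 3 series 9 had a correlation of deviations over 0.1, the lowest being -0.12. The median of these pairs was 0.105, against 0.003 for the 90 other pairs. No libraries were identical (correlations within series 0.944 to 0.995).

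Depth was estimated, not stated: with exon lengths of GENCODE M21 (GRCm38) for the 21164 symbols that matched 1 gene, the depth was taken at which low values (up to 12 reads) came out as whole reads within 0.05, true of 66.0 to 70.9% of them against a median of 7.25 to 8.21% at other depths. Intervals on shares were not computed since this depth is an estimate. Promoter stretches are the 250 bases before the start in RefSeq.

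Named genes are those past the threshold with at least 1 RPKM and a single direction, both against each early series and for 5 or more of the 6 numbers (the 15 largest rises and falls), up to 4 called genes of each list, 18 genes fixed by name, and the 8 smallest p-values of the unloaded less free-moving difference. Not all are printed, and further immediate early genes, list members and genes called against both early series were added after their values were seen. The members and the lists were chosen with earlier results of these data known. Alternatives were another pseudocount, no filter, quantile normalization, rescaling to 1 sum with and without mitochondrial genes, the mitochondrial share as a covariate, array weights, no block, each title number left out, each early series alone and only the series compared. Leaving out early series a number 1, or late numbers 9, 13, 17 and 21, was chosen after seeing the data.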

Additional observations from a re-analysis of the deposited data

Results flagged for a closer look

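A library was singled out where its gap to the next library of its series of 6 was larger, relative to the range of the series, than Dixon's 95% critical value. This held for 46 of 222 series of values, and chance alone gives about 1 in 20.

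Number 1 of early series a was the highest of its series for mt-Co2 (27440 RPKM, the other 5 reaching 8165), mt-Nd5 (9067), Ndufa2 (499.8), Mobp (697.8), Mgp (427.5), Gfap (216.6) and Igf2 (146.4). It was also the highest for Rax (5.52) and Prlh (5.08), and its mitochondrial share was 48.2%. It was the lowest for Slc1a2 (21.6), Gad2 (13.2), Vegfa (4.50), Gria2 (4.07), Rora (1.15) and Plekhg1, a thalamus marker (0.841).

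Number 21 of early series b was the highest of its series for mt-Co2 (27670 RPKM), Mobp (848.9), Sgk1 (24.5), Il33 (14.2), Fos (8.23) and Dusp1 (7.72), with a mitochondrial share of 51.0%. It was the lowest for Hcrt (235.1), Jund (131.1), Gad2 (12.6), Gria2 (5.99), Nr4a1 (3.19) and Grin2b (0.46). Number 13 of that series was the highest for Avp (6294), Rax (6.07) and Egr1 (6.00).

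Number 9 of early series a was the highest for Pomc (362.3 RPKM), Cga (100.7) and Kcna3 (0.672), and number 17 for Nmb (17.3). Pitx1, a pituitary transcription factor gene, was at 2.91 RPKM in that number 9.

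Number 9 of the late series was the lowest for Junb (12.7 RPKM, the others 37.7 to 49.1), Egr1 (8.11), Zkscan16 (5.13), Npas4 (3.79) and Egr4 (2.31), and the highest for Slc9a7 (1.41). Late number 21 was the highest for mt-Nd5 (2175) and the mitochondrial share (16.6%), late number 5 for Gnrh1 (7.24), and late number 1 was the lowest for Gad2 (39.6).

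The late-against-early difference of unloaded mice less that of free-moving mice passed for 27 of the 73 genes named (33.5% of all genes). It was above 0 for mt-Co2 (1.59), Npas4 (1.44), Lrg1 (1.01), Gnrh1 (0.94), Ndufa2 (0.84), Rps19 (0.77), Oxt (0.56), Jund (0.55), Cartpt (0.54) and Sst (0.43). It was below 0 for Klhl11 (-2.25), Kcna3 (-2.04), Gabrb2 (-2.01), Slc9a7 (-1.78), Sacm1l (-1.66), Zkscan16 (-1.42), Sgk1 (-1.34) and Grin2b (-1.22). It was also below 0 for Gad2 (-1.10), Slc1a2 (-0.93), Slc17a6 (-0.86), Nr4a3 (-0.84), Rora (-0.83), Gria2 (-0.76), Nefm (-0.68), Aqp4 (-0.63) and Jun (-0.61).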

How the results depend on the processing

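The 6479 genes called late against early became 2346 with the mitochondrial share as a covariate (844 higher, 1502 lower), 99 against early series a alone and 2 with late numbers 1 and 5 only, a setting that leaves 2 late libraries in the fit. They were 6079 with no replicate block, 4595 to 6061 with each title number left out and 9175 after rescaling to 1 sum, where 97.5% were higher. With only the series compared in the fit there were 7247, and without early series a number 1 there were 5320. The 4589 genes that differed between unloaded and free-moving mice became 1771 with the covariate (1374 above 0), 9545 with array weights, 741 with early series b alone, 6383 without early series a number 1, 1464 with late numbers 1 and 5 only, 3904 with no replicate block and 1818 to 5426 with each title number left out. The cause of these changes was not tested. Libraries of 1 title number were alike only weakly.

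The 114 genes that differed between early series b and a became 33 with a pseudocount of 0.1, 9 with no filter, 1577 after quantile normalization, 1060 without mitochondrial genes, 2 after rescaling to 1 sum and 0 with the covariate. They became 7843 with array weights, 1 with no replicate block, 306 with only the series compared, 5 without series a number 9, 5828 without series a number 1 and 0 to 5370 with each title number left out. The count of 0 with the covariate is from limma. The mitochondrial share differed by -6.51 points against series a alone, by -14.2 points with late numbers 1 and 5 only (exact permutation p 0.165) and by -14.7 to -10.4 points with each title number left out.

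Of 73 named genes, 39 passed in the main comparison but not against early series a alone, 12 lost the call with the covariate and 64 with late numbers 1 and 5 only. Signs turned for genes that had not passed, and for Ptgds (0.17 after quantile normalization) and Tcf7l2 (-0.022 with late numbers 1 and 5 only). Crh was 0.21 after rescaling to 1 sum and 0.055 against series b alone. Trh was 0.055 after rescaling and 0.053 with late numbers 1 and 5 only, and Hcrt 0.031 after rescaling. Pmch was -0.16 with the covariate. Sgk1 was -0.26 with the covariate, -0.36 with late numbers 1 and 5 only and -0.22 against series a alone.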

Other observations

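Receptors through which the peptides act were among the genes not described above. Of 13 energy balance receptors 7 rose and 0 fell, with a median log2 difference of 0.32 (38.8% of all genes rose), and 4 of the 13 differed between unloaded and free-moving mice. Of 12 granin and peptide processing genes 2 rose and 1 fell. Of 8 choroid plexus genes tested 5 rose and 0 fell, and the summed level of this list was 62.7 to 354 RPKM in the late series, 51.8 to 90.0 RPKM in early series a and 57.8 to 90.1 RPKM in early series b. Late numbers 13 and 17 stood apart at 168 and 354 RPKM, while the other 4 late libraries lay between 62.7 and 84.5 RPKM. With late numbers 1 and 5 alone 0 of these genes passed, but in that setting only 2 genes of the whole table did, so this count cannot tell the libraries apart. After quantile normalization 2 of the energy balance receptors were higher and 1 lower, and 2 of the choroid plexus genes were higher. Of 7 blood cell genes 0 were called by limma. Of 15 collagen genes 5 fell and 2 rose, and of 10 ependymal and tanycyte genes 5 fell and 1 rose, Rax with the largest fall of these 10. Over all tested genes 8.53% fell and 38.8% rose.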
